A study of Mus musculus with 14 samples.

Results

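The genes described here encode 9 enzymes of mouse liver that convert steroid hormones or belong to families that do. Their symbols are Cyp17a1, Hsd3b2, Hsd3b3, Hsd3b5, Akr1c6, Akr1c18, Hsd17b13, Srd5a1 and Hsd11b1. They were picked by symbol, with earlier results of these data known, out of 17552 genes in the deposited table of gene expression. All 9 had at least 100 counts in the groups together, as did 13291 of all genes. Liver RNA came from male C57BL/6 mice deficient in Apoe, the gene of apolipoprotein E, so that control and treated mice carried the same deficiency. Both groups ate a Western diet, for 8 weeks by the labels, which also give an age of 8 weeks, while the study's methods give a longer time on the diets. The erythrodiol group received 10 mg/kg of erythrodiol, a triterpene of the olive, in that diet, and the control group the diet alone. Each group comprised 7 libraries, each made from RNA pooled from a few mice. Apoe was still counted in both groups, with 9403 counts in the control against 8293 with erythrodiol. By RT-PCR the study reported no Apoe expression in liver of Apoe-deficient mice, and where in the gene these counts fall was not tested.

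Gene expression was deposited as 1 value per gene and group, the sum of the estimated read counts of the 7 libraries. These sums reached 122889032 counts in the control against 124686047 with erythrodiol. A difference between groups therefore has no replicate check, no test was made, and the values of single libraries, and so whether the groups overlap, were not analysed here. Differences are given as the log2 of the ratio of erythrodiol to control, each group scaled by its total count, with a 95% exact interval in brackets that covers counting error only. Across genes with at least 100 counts, this log2 ratio increased with gene length, from a median of -0.30 in the shortest of 20 length classes to 0.35 in the longest, and its overall median was 0.16. The difference of each of the 9 enzymes is therefore also given relative to the median of genes of like length, in the same class. Control libraries held 34856340 to 55244294 clean reads and erythrodiol libraries 47669656 to 48058606. Control replicate 3 stood apart, with 64.33% of its clean reads mapped to genes against 74.39% to 81.43% in the other control libraries, and could not be left out of the sums. Clean reads mapped to a unique gene made up 51.36% to 67.12% in control libraries against 57.85% to 65.32% with erythrodiol. Control replicates 1, 3 and 4, at 51.36%, 52.68% and 54.17%, lay below all erythrodiol libraries. The part that library depth, unique mapping and gene length play in the differences was not tested.

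Steroid hormones are made from cholesterol, mainly in the adrenal glands and gonads, by cytochromes P450 and hydroxysteroid dehydrogenases. The liver mostly remodels and clears them: it reduces double bonds and keto groups, so that active hormones become inactive ones or the reverse, and prepares them for excretion. Many of these enzymes act in the endoplasmic reticulum. This term was attached in the table to 6 of the 9 genes, against 8.68% of all genes, and a lipid droplet term to Hsd17b13.

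Measured per length in TPM, which is a gene's counts divided by its length and scaled so that all genes sum to 1000000, the 9 genes spanned more than 3 orders of magnitude. In the control the order was Akr1c6 at 1889 TPM, Hsd11b1 at 776, Hsd17b13 at 623, Hsd3b3 at 236, Hsd3b5 at 212, Srd5a1 at 51.9, Hsd3b2 at 33.1, Cyp17a1 at 5.38 and Akr1c18 at 1.16. With erythrodiol the order was the same except that Hsd17b13, at 672 TPM, stood above Hsd11b1, at 634. The counting intervals of neighbouring genes did not overlap in either group, but the spread over libraries, which would decide whether neighbours differ, was not available from pooled values. Akr1c6 was the 62nd highest of all genes in the control and the 79th with erythrodiol.

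**Figure D1:**
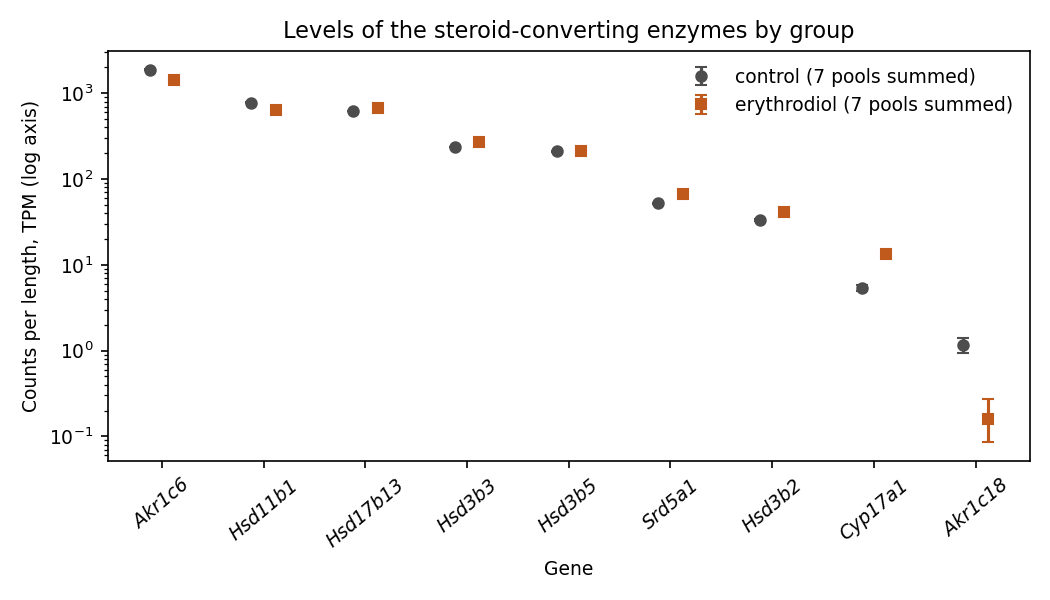
Level of each gene in TPM (vertical log axis) in the control (grey circles) and erythrodiol (orange squares) groups, each the sum of 7 pooled libraries, with 95% counting intervals that are mostly smaller than the symbols. Cyp17a1 stood at 5.38 and 13.2 TPM and Akr1c18 at 1.16 and 0.160, while each of the other 7 genes differed less between the groups.

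Past 1.5-fold, 1 of the 9 genes was higher with erythrodiol and 1 was lower, against 2.55% and 3.14% of all genes. Past 2-fold the same 2 genes remained, Cyp17a1 and Akr1c18, against 0.218% of all genes higher and 0.549% lower. Cyp17a1 fell just short of 2-fold, at a log2 ratio of 0.98 relative to the median of all genes and 0.97 with upper quartile scaling. Relative to genes of like length the background was 1.06% higher and 3.57% lower past 1.5-fold, and again Cyp17a1 and Akr1c18 were the 2 genes past it. The genes were picked with these values known, so the counts describe the choice and support nothing further. The median log2 ratio of the 9 genes was -0.04, beside 0.16 for all genes, and -0.03 relative to genes of like length. Their summed counts went from 399245 to 322144, or from 0.325% to 0.258% of all counts, a log2 ratio of -0.33. Without Akr1c6, which held 47.6% of these counts in the control against 40.7% with erythrodiol, the ratio of the sums was -0.15.

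**Figure D2:**
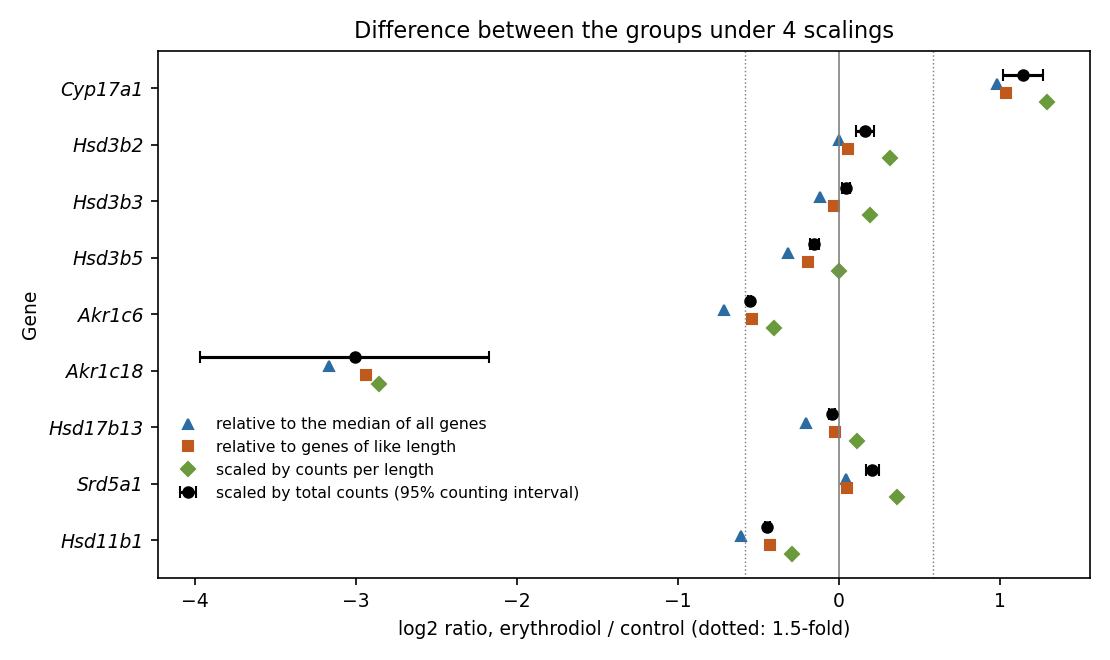
Log2 ratio of erythrodiol to control (horizontal axis) for the 9 genes under 4 scalings, with 95% counting intervals on the values scaled by total counts and dotted lines at 1.5-fold. Cyp17a1 at 1.14 and Akr1c18 at -3.01 lie past the lines under each scaling shown, and Akr1c6 and Hsd11b1 pass the lower one when set relative to the median of all genes.

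Cyp17a1 encodes steroid 17α-hydroxylase and 17,20-lyase, the P450 that commits steroids to cortisol or androgen precursors and is best known from the gonads. The gene (identifier 13074) lies on chromosome 19 of GRCm38, from 46667165 to 46673000. It had 741 counts in the control against 1659 with erythrodiol, or 5.38 and 13.2 TPM, and moved from the 7830th to the 5641st highest gene. The erythrodiol group was the higher one. The log2 ratio was 1.14 [1.02 to 1.27], a 2.21-fold higher value, and 1.04 relative to genes of like length. In its length class of 668 genes, 664 had a lower ratio and 3 a higher one. Its counts were whole numbers, and no stretch of 50 bases of its coding sequence was shared with another annotated gene.

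Cyp17a1 works with partners that were also counted. P450 oxidoreductase (Por) hands it electrons, and cytochrome b5 (Cyb5a) favours its lyase step. Por had 23187 counts in the control against 36205 with erythrodiol, a log2 ratio of 0.62, while Cyb5a had 134027 and 90395, a log2 ratio of -0.59. Against genes of like length these values were 0.47 and -0.29, so that neither stayed past 1.5-fold. Per length, the level of Por was 22.8 times that of Cyp17a1 in the control and 15.9 times with erythrodiol, and that of Cyb5a 449 and 135 times. Both partners remained more abundant than Cyp17a1 in each group.

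The genes listed for steroid synthesis from cholesterol, with Por and Cyb5a among them, behaved unevenly. Of 11 genes listed, 7 had at least 100 counts, with a median log2 ratio of 0.31, or 0.14 relative to genes of like length. Past 1.5-fold 1 was higher, which was Por, and 2 were lower, Cyb5a and Tspo, against 2.55% and 3.14% of all genes. Relative to genes of like length 0 were higher and 1, Tspo, was lower, against 1.06% and 3.57% of all genes. The lowest was Tspo, the translocator protein of the outer mitochondrial membrane, with 8602 counts in the control against 4198 with erythrodiol. Its log2 ratio was -1.06, and -0.76 relative to genes of like length, below the 1.5-fold limit under all 7 scalings. Star, the carrier of cholesterol into mitochondria, had 297 and 391 counts. Cyp11a1, the enzyme of the first step from cholesterol, had 1 count in the control against 4 with erythrodiol.

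Because Cyp17a1 is typical of gonads, markers of other organs were examined. Of 7 markers of adrenal cortex and gonads, 6 matched the table, and their counts summed to 953 in the control against 1155 with erythrodiol, or 7.76 and 9.26 per 1000000 counts. Most of these were Cyp21a1, with 592 and 746 counts, and Star. Defining markers at or near 0 were Nr5a1, with 1 and 0 counts, Cyp11b2, with 1 and 1, and Cyp11a1, while Insl3, the hormone of Leydig cells, had 61 and 13. Kidney markers summed to 167 and 244 counts, with 1 and 0 counts of both Umod and Slc34a1, and the rest was Lrp2. Exocrine pancreas markers summed to 158 and 185 counts, of which Cela2a held 104 and 96. The other 5 of these markers went both ways, Ctrb1 from 8 to 42, Cpa1 from 2 to 15 and Cel from 8 to 14, but Pnliprp1 from 21 to 10 and Prss2 from 15 to 8. Of 8 hepatocyte markers all were counted, Alb most highly per length, at 63753 and 68184 TPM, and their median log2 ratio was 0.20. The part of other organs in the values of Cyp17a1 was otherwise not tested, and fewer cells of a type cannot be told apart from less RNA per cell in such bulk samples.

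The 3 Hsd3b genes encode 3β-hydroxysteroid dehydrogenases, which oxidise the 3-hydroxyl group of a steroid and shift its double bond, or, in the case of Hsd3b5, reduce keto groups. They lie in a row on the minus strand of chromosome 3, Hsd3b5 from 98618636 to 98645534, Hsd3b2 from 98711107 to 98724543 and Hsd3b3 from 98741476 to 98764540. Hsd3b2 and Hsd3b3 were 95.1% identical over 1119 coding bases, while Hsd3b5 was 80.4% and 81.0% identical to them. The longest stretch that Hsd3b2 and Hsd3b3 share is printed here because paired reads that both lie within it cannot be assigned to either gene by sequence. It covers 228 bases of the coding sequence, from base 153 to 380, which fall in exons 5 and 6 of Hsd3b2 and exons 3 and 4 of Hsd3b3. Below it stands the same stretch of Hsd3b5, whose 53 bases that differ are in capitals. The positions include the introns between the exons.
Hsd3b2 (chr3:98712248-98713585, minus strand) and Hsd3b3 (chr3:98742626-98743980, minus strand): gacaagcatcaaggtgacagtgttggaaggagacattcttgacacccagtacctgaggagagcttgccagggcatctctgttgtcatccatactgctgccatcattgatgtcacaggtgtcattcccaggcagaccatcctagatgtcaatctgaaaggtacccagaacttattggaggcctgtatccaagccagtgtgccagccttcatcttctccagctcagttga
Hsd3b5 (chr3:98619749-98622160, minus strand): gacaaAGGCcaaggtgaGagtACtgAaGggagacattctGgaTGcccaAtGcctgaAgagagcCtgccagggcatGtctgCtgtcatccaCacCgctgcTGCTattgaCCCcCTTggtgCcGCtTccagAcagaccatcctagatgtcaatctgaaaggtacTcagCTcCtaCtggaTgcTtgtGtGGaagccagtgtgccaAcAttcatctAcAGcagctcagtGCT

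Of the stretches of 100 bases in the coding sequence, 19.5% in Hsd3b2 and 19.8% in Hsd3b3 also occurred in another annotated gene, nearly all in each other. In Hsd3b5 11.1% did so, all of them in Gm10681, with Hsd3b4 and Gm4450 also sharing stretches. The coding sequence of Hsd3b5 was 95.2% identical to that of Hsd3b4. The counts of all 3 genes were not whole numbers, as happens when reads are divided between genes in the estimate, and as was so for 20.5% of all genes with at least 100 counts. The values of the single Hsd3b genes are therefore uncertain beyond their counting intervals.

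Hsd3b3 was the most abundant of the 3 in both groups, with 29538 counts in the control against 30866 with erythrodiol, or 236 and 270 TPM. Hsd3b5 followed with 25467 and 23248 counts, or 212 TPM in both groups, and Hsd3b2 had 4802 and 5458 counts, or 33.1 and 41.2 TPM. None passed 1.5-fold, and the 3 genes did not share a direction when scaled by total counts. The log2 ratios were 0.04 [0.02 to 0.07] for Hsd3b3, -0.15 [-0.18 to -0.13] for Hsd3b5 and 0.16 [0.11 to 0.22] for Hsd3b2. Set against genes of like length they were -0.03, -0.19 and 0.06, so that Hsd3b3 changed its sign. With upper quartile scaling all 3 were below 0, Hsd3b2 barely so at -0.003. The ratio of Hsd3b3 to Hsd3b2 per length was 7.14 in the control against 6.56 with erythrodiol. Taken as a sum, which is not affected by how reads were divided among them, the 3 genes had 59807 and 59572 counts and a log2 ratio of -0.03 [-0.04 to -0.01].

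The other Hsd3b genes of the row were hardly counted. Hsd3b1, the form of adrenal glands and gonads, had 13 counts in the control against 4 with erythrodiol, Hsd3b6 had 5.05 and 1.01, and Hsd3b4 had 1.01 and 0. Hsd3b7, which acts on a bile acid precursor and lies elsewhere, had 64720 and 59941 counts and a log2 ratio of -0.13, or -0.20 relative to genes of like length.

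The authors also assembled transcripts from the reads and added those that were new and coding to the reference on which reads were counted. Such transcripts existed for 4 of the 9 genes, against 35.8% of all genes with at least 100 counts. Hsd3b2 had 7, a number that 1.73% of genes reached, Hsd3b3 had 4, and Hsd11b1 and Srd5a1 had 1 each. In 6 of the 7 for Hsd3b2 the first exons overlapped the Hsd3b3 gene, across a gap of 16932 bases, and up to 383 of their bases fell in its annotated exons. In 2 of the 4 for Hsd3b3 the first exons overlapped the Hsd3b1 gene. Bases of Hsd3b3 and Hsd3b1 were thus part of transcripts counted under another gene's name, and how many reads this moved was not tested. None of the 9 genes was among the 16 genes with a deposited differential splicing event.

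**Figure D3:**
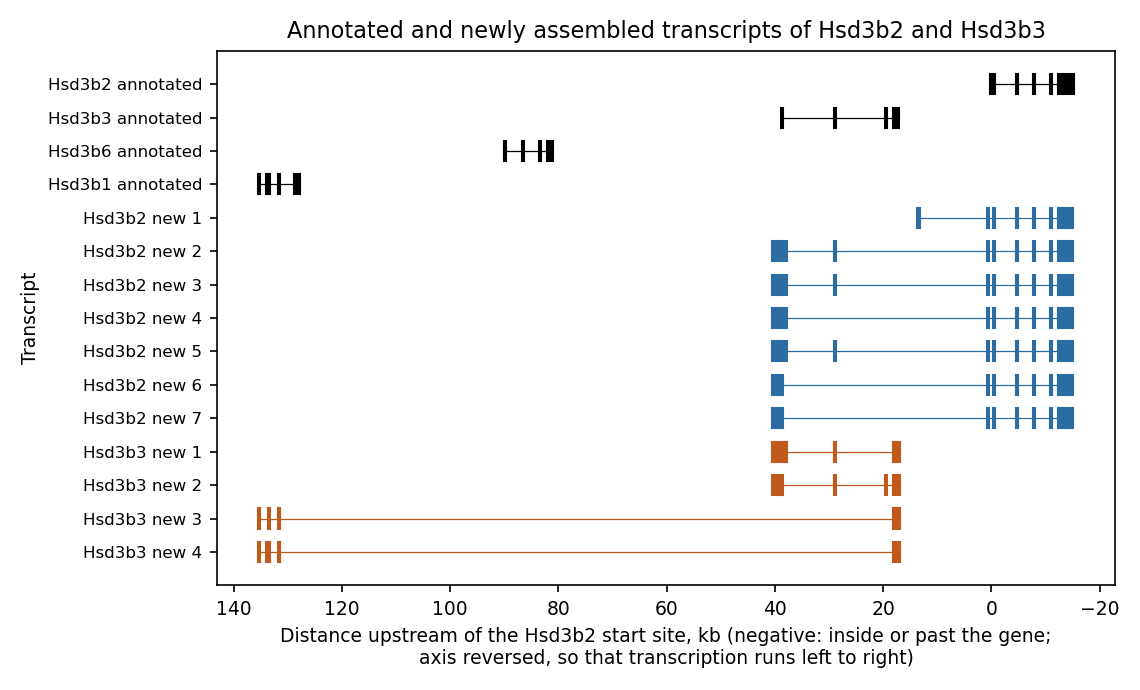
Exons (boxes) and introns (lines) of the annotated transcripts of 4 Hsd3b genes (black) and of the newly assembled coding transcripts named for Hsd3b2 (blue) and Hsd3b3 (orange), in kb upstream of the start of Hsd3b2, with transcription from left to right. In 6 of the 7 new Hsd3b2 transcripts the first exons overlap Hsd3b3, and in 2 of the 4 new Hsd3b3 transcripts they overlap Hsd3b1.

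Akr1c6 and Akr1c18 are aldo-keto reductases, soluble enzymes that reduce keto groups of steroids with NADPH. Akr1c6 turns androstenedione into testosterone, and Akr1c18 is the 20α-hydroxysteroid dehydrogenase that inactivates progesterone, best known from the ovary. Akr1c6 (chromosome 13, 4434311 to 4457530) had 189881 counts in the control against 131260 with erythrodiol, or 1889 and 1430 TPM. The erythrodiol group was the lower one. The log2 ratio was -0.55 [-0.56 to -0.54], a 1.47-fold lower value, and -0.54 relative to genes of like length. Of the 667 genes of its class, 52 had a lower ratio. Set relative to the median of all genes it was -0.72, past 1.5-fold.

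Akr1c18 (chromosome 13, 4132615 to 4150646) had 103 counts in the control against 13 with erythrodiol, or 1.16 and 0.160 TPM. It was the least abundant of the 9 genes in both groups, just over the limit of 100 counts, and passed that limit through the control. The log2 ratio was -3.01 [-3.96 to -2.17], an 8.04-fold lower value with an interval of 4.50 to 15.6. Against like length it was -2.94, with 1 of 664 genes of the class lower. The 103 counts belong to 7 libraries together, so that a single library could hold most of them, which was not tested.

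Sequence separates Akr1c18 from Akr1c6 better than it separates Akr1c6 from its neighbour Akr1c20. Coding sequences were 92.3% identical between Akr1c6 and Akr1c20 and 76.7% between Akr1c6 and Akr1c18. The longest stretch shared by Akr1c6 and Akr1c20, bases 424 to 488 of the coding sequence in exons 4 and 5, is shown with its counterpart in Akr1c18, whose 7 differing bases are in capitals.
Akr1c6 (chr13:4446406-4447048, plus strand) and Akr1c20 (chr13:4510190-4511229, plus strand): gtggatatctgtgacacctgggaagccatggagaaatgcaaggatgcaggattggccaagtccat
Akr1c18 (chr13:4142209-4143241, minus strand): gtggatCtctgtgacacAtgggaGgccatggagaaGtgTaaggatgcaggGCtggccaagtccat

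No stretch of 100 coding bases of Akr1c6 or Akr1c18 occurred in another gene, while of 50 bases 28 stretches of Akr1c6 occurred in Akr1c20 and 7 of Akr1c18 in Akr1cl, a gene with 1 count in the control against 0 with erythrodiol. The counts of Akr1c18 were whole numbers and those of Akr1c6 were not. Akr1c6 and Akr1c20 together had 205870 counts in the control against 141746 with erythrodiol, a log2 ratio of -0.56 [-0.57 to -0.55].

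The lower values were shared along the Akr1c cluster of chromosome 13, which holds 8 genes in the table. Of the 7 with at least 100 counts, all 7 had a log2 ratio below 0, where 28.8% of all genes did. Akr1c18 is among the 7 only through its control counts. All but Akr1c14 are short genes, in length classes whose medians were themselves below 0, at -0.07 and -0.02. The share of 28.8% is thus not that of genes of their length. Relative to genes of like length all 7 were below 0 too, against 49.95% of all genes. The exception by scaling is Akr1c19, which came to 0.01 when groups were scaled by counts per length, where Akr1c14 was at -0.00. The ratios ranged from -3.01 for Akr1c18 to -0.14 for Akr1c19, with a median of -0.47. Akr1c20 was at -0.63, with 15989 and 10486 counts, past 1.5-fold under 6 of 7 scalings and not with counts per length. Akr1c13 was at -0.47, Akr1c12 at -0.41 and Akr1c14, a 3α-hydroxysteroid dehydrogenase, at -0.15. Relative to genes of like length these 4 genes were at -0.61, -0.45, -0.40 and -0.30. Akr1c21 had 8 counts in the control against 1 with erythrodiol. Akr1d1, the 5β-reductase of bile acid and steroid breakdown, which lies outside the cluster, was instead at 0.30, with 14344 and 17943 counts, and at 0.15 relative to genes of like length. The members of the cluster resemble each other in sequence, so they are not independent of each other, and 4 of the 7 had counts that were not whole.

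The RefSeq windows around start sites, from 250 bases before to 50 after, were read for 8 of the 9 genes. No window was available for Cyp17a1, and the 8 genes had 9 windows in all, in GRCm38.p6. The windows are shown for the 2 Akr1c genes, with letters found by the search in capitals. These were AGGTCA in Akr1c18, a core motif of nuclear receptors, at position 28 counted from the start site. In Akr1c6 they were TATAAA, the letters of the TATA box motif, at position -164.
Akr1c18 (chr13:4150597-4150896, minus strand): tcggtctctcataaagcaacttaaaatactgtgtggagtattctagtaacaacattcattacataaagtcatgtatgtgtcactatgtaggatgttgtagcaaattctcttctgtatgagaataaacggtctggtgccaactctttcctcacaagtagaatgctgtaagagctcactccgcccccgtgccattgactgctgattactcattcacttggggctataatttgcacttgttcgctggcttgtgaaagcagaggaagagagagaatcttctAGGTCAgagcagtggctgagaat
Akr1c6 (chr13:4434093-4434392, plus strand): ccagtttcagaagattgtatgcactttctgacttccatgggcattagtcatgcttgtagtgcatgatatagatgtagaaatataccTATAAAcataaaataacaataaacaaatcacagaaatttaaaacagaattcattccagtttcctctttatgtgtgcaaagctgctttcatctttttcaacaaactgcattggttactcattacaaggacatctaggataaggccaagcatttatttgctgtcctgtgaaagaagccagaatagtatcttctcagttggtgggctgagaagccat

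Searched on both strands, TATAAA occurred in 13.6% of 32851 such windows and AGGTCA in 16.3%, the latter also in Hsd17b13. TGTTCT, a core motif of the glucocorticoid receptor, occurred in 19.0% and, of the 8 genes, in Hsd3b2. TTCNNNGAA of STAT5, in 8.30% of windows, CAAGGTCA of LRH-1 and SF-1, in 1.56%, and TTGCNNAA of C/EBP, in 10.8%, occurred in none of the 8. Cyp17a1 was not searched for any of these. AGGTCA is part of CAAGGTCA, so that these searches overlap. The matches describe letters in these windows and were not related to the counts.

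Hsd17b13 encodes a protein of lipid droplets in hepatocytes with retinol dehydrogenase activity, named for its family of 17β-hydroxysteroid dehydrogenases. The gene (chromosome 5, 103955442 to 103977388) had 59856 counts in the control against 58947 with erythrodiol, or 623 and 672 TPM. The groups were close. The log2 ratio was -0.04 [-0.06 to -0.03], -0.03 relative to genes of like length, and its sign turned, to 0.11, when groups were scaled by counts per length.

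Of 12 other symbols listed for the Hsd17b family, 11 matched a counted gene and 9 had at least 100 counts. Their median log2 ratio was 0.07, with 1 gene past 1.5-fold, higher, against 2.55% of all genes. That gene was Hsd17b1, which turns estrone into estradiol, with 37 counts in the control against 63 with erythrodiol and a log2 ratio of 0.75 [0.14 to 1.37], or 0.62 relative to genes of like length. Its counts summed to exactly the limit of 100, and it was past 1.5-fold under 5 of 7 scalings, but not relative to the median of all genes or with upper quartile scaling. The lowest was Hsd17b10, a mitochondrial enzyme, with 14581 and 12897 counts and a log2 ratio of -0.20, or -0.13 relative to like length. Per length, Hsd17b4, the peroxisomal multifunctional enzyme, stood at 256 and 328 TPM, below Hsd17b13 in both groups.

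Srd5a1 encodes steroid 5α-reductase type 1, which reduces testosterone, progesterone and glucocorticoids at the A ring. The gene (chromosome 13, 69573449 to 69611485) had 10353 counts in the control against 12131 with erythrodiol, or 51.9 and 66.7 TPM. The log2 ratio was 0.21 [0.17 to 0.25], near the median of all genes, and 0.05 relative to genes of like length. Its value thus differed little from that of genes like it in length. Of the stretches of 100 bases in its coding sequence, 27.5% also occurred in the annotated gene Gm17108, although its counts were whole numbers. Srd5a2 had 102 and 116 counts, and Srd5a3 had 1581 and 1812.

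Hsd11b1 encodes the liver's 11β-hydroxysteroid dehydrogenase type 1, which regenerates active glucocorticoid from its inactive 11-keto form. The gene (chromosome 1, 193221640 to 193264045) had 78504 counts in the control against 58562 with erythrodiol, or 776 and 634 TPM. The erythrodiol group was the lower one. The log2 ratio was -0.44 [-0.46 to -0.43], a 1.36-fold lower value, and -0.43 relative to genes of like length. In its class of 667 genes, 92 had a lower ratio. Relative to the median of all genes it was -0.61, past 1.5-fold. No stretch of 50 coding bases was shared with another gene.

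H6pd supplies Hsd11b1 with NADPH inside the endoplasmic reticulum. It had 58679 counts in the control against 72935 with erythrodiol, a log2 ratio of 0.29, or 0.02 relative to genes of like length. Per length, the level of H6pd was 0.215 of that of Hsd11b1 in the control against 0.359 with erythrodiol. This ratio holds the lower value of Hsd11b1 and the higher one of H6pd, a gene of 4700 bases in a length range where ratios were higher in general.

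**Figure D4:**
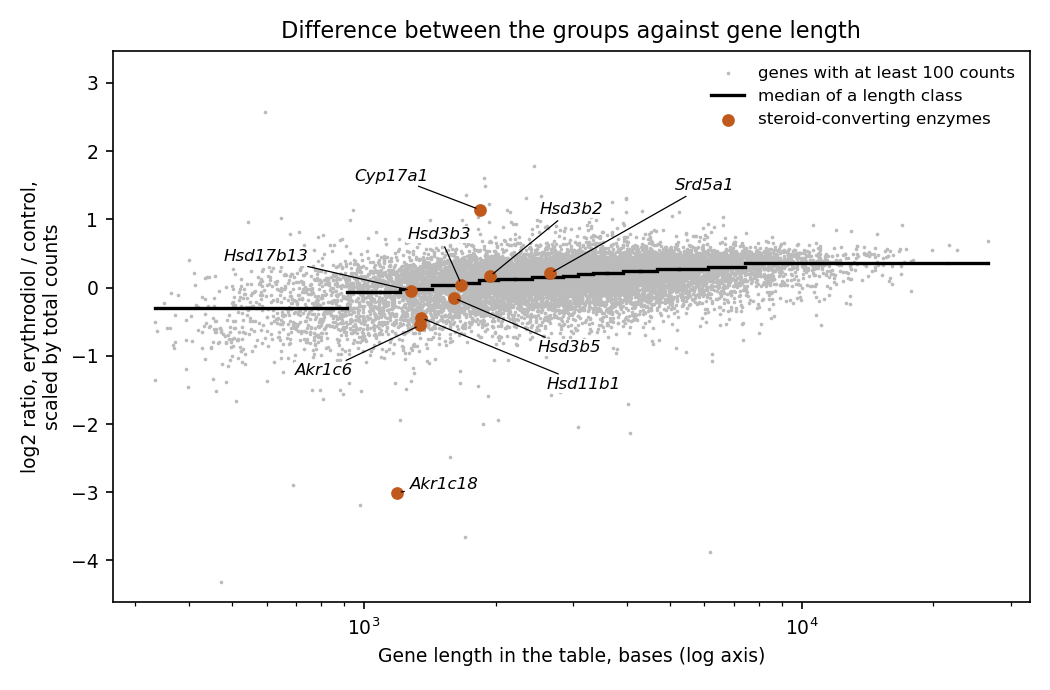
Log2 ratio, erythrodiol over control, after scaling by total counts (vertical axis), against gene length in bases (log axis) for the 13291 genes with at least 100 counts (grey), with the median of each of 20 length classes (black bars) and the 9 enzymes (orange). Class medians climb from -0.30 to 0.35, Cyp17a1 lies above and Akr1c18 below nearly all genes of their length, and Srd5a1, Hsd3b2, Hsd3b3 and Hsd17b13 lie near the medians.

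Genes that respond to steroids were listed as well. Of 6 steroid receptors, 4 had at least 100 counts, all 4 with a log2 ratio above 0 and none past 1.5-fold. Among all genes, 9462 of 13291 were above 0 with this scaling. The highest was Esr1, the estrogen receptor, at 0.43, or 0.16 relative to like length. Relative to genes of like length 2 were above and 2 below 0, with a median of 0.02. The direction of this list thus depended on the scaling.

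Of 10 glucocorticoid targets, all 10 had at least 100 counts, with a median log2 ratio of 0.25, or 0.09 relative to genes of like length. Of these, 2 were higher past 1.5-fold and 2 lower, against 2.55% and 3.14% of all genes. Per1, of the circadian clock, was at 0.67, with 2363 and 3820 counts. Pck1, of gluconeogenesis, was at 0.65, with 109728 and 174872 counts. The metallothioneins were the low ones, Mt2 at -0.93 with 3630 and 1936 counts and Mt1 at -0.63 with 5951 and 3913. Against genes of like length Mt2 alone of the 4 stayed past 1.5-fold, at -0.63. The list thus held members on both sides.

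Sex-biased liver genes were examined because Hsd3b5 is higher in male than in female mouse liver. Of 9 other male-biased genes, the median log2 ratio was 0.03, or -0.05 relative to genes of like length. In this list 1 gene was lower past 1.5-fold, against 3.14% of all genes. This was Mup20, a major urinary protein, at -0.62, which came to -0.32 relative to genes of like length, so that none of the 9 was then past 1.5-fold. The highest was Cyp4a12b, a fatty acid hydroxylase, at 0.38, or 0.25 relative to like length. Of 11 female-biased genes, 3 had at least 100 counts, with 2 lower past 1.5-fold, against 3.14% of all genes. Cyp2b9 had 6015 counts in the control against 1524 with erythrodiol, with a log2 ratio of -2.11 relative to genes of like length, and Cyp2b13 had 336 and 27.02, with -3.73. Both are P450s of drug metabolism. Cyp2b13 passed the limit of 100 counts through the control. How the counts of these 2 genes spread over the libraries was not available, so that a few libraries could hold most of them, which was not tested. Cux2 had 63 and 79 counts.

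**Figure D5:**
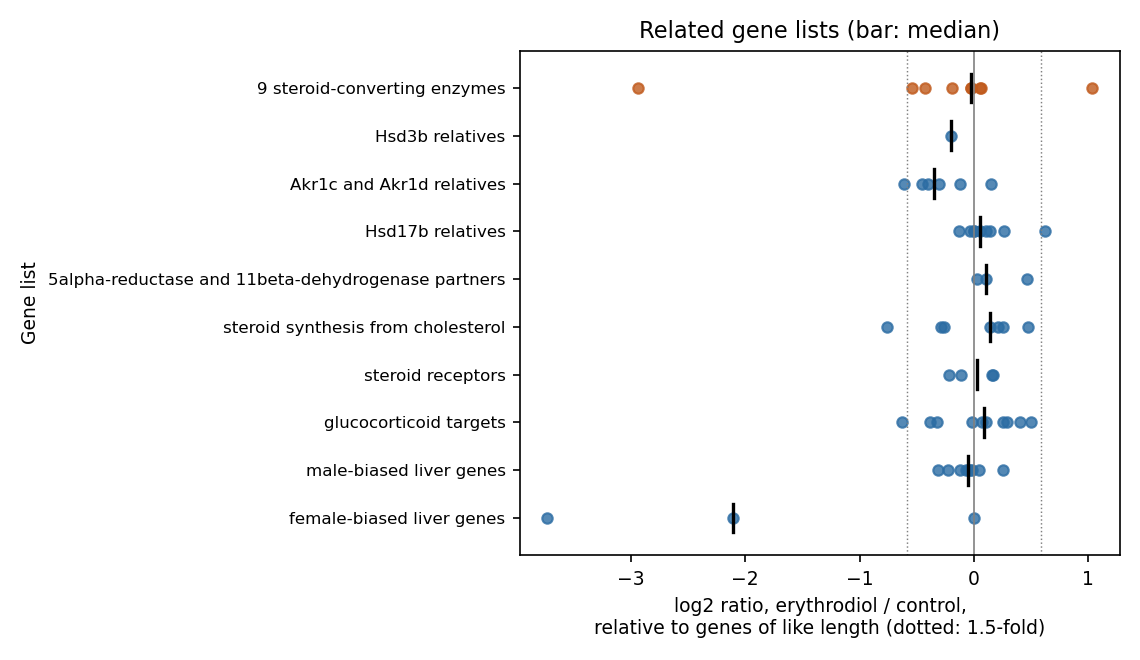
Log2 ratio of erythrodiol to control relative to genes of like length (horizontal axis) for the 9 enzymes (orange) and for the genes with at least 100 counts of 9 related lists (blue), with each list's median as a black bar and dotted lines at 1.5-fold. The Akr1c and Akr1d relatives have a median of -0.35, while medians of the receptors, the male-biased genes and the glucocorticoid targets lie between -0.05 and 0.09.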

How the data were processed

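Liver RNA of 7 control and 7 erythrodiol libraries was measured by paired-end poly-A RNA sequencing, and groups were taken from the titles of the samples. Per the labels, the authors used HISAT, StringTie, Cufflinks, GATK, Bowtie2 and RSEM, whose versions are not given in the sources used here. The authors deposited for each gene an expected count per group, not normalized, which is the sum over the group's libraries, and for each library counts of clean reads and mapping rates in percent. Their columns of log2 ratios, p-values and q-values were not used. Coordinates are those of GRCm38.

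Log2 ratios were computed from counts scaled by each group's total, over genes whose counts in both groups summed to at least 100, with exact Clopper-Pearson intervals at 95% on the share of the 2 rounded counts. TPM was computed from counts and the table's gene lengths, with exact Poisson intervals. The design had provided for counts per library. Since the columns hold group sums, no test was made, and edgeR, DESeq2 and a replicate block were not run. Members and gene lists were chosen with earlier results of these data known. Named are all 9 genes and, of each list, the highest, the lowest and those past 1.5-fold, up to 4 in all. One gene that this rule names is not reported here. The other genes named (partners, neighbours in the clusters and organ markers) were chosen after their values were seen. A count was called whole within 0.005. Coding sequences came from GENCODE, one transcript per gene, and promoters from RefSeq. Shared stretches of 50 and 100 bases were searched among all annotated transcripts, and pairwise identity was computed with biopython 1.88. Computations used scipy 1.17.1, pandas 2.3.3 and numpy 2.4.6 under Python 3.11.15, and figures matplotlib 3.10.9. The ratio scripts were tested on simulated data. Alternatives were 5 other scalings, 1 added count, minimums of 10 counts and none, and a 2-fold limit. Scaling by counts per length was added after seeing the data.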

Additional observations from a re-analysis of the deposited data

Results flagged for a closer look

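Control replicate 3 stood apart in the share of clean reads mapped to genes, at 64.33%, where the nearest other control library was at 74.39% and the highest at 81.43%. Its gap to the nearest library was 0.588 of the range of the group, over the limit of 0.568 for 7 libraries. Of 6 combinations of group and measure examined, this was the one past its limit, and chance passes it in about 1 of 20. Since gene counts are sums over the 7 control libraries, the 9 enzymes could not be given without this library, and its part in their values was not tested.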

How the results depend on the processing

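No paired analysis was possible because gene values are sums over the 7 libraries of a group, and for the same reason no library could be left out. Over 9 alternatives the log2 ratio stayed on its side of 0 for Cyp17a1 (0.97 to 1.29), Akr1c18 (-3.17 to -2.85), Akr1c6 (-0.72 to -0.40), Hsd11b1 (-0.61 to -0.29), Hsd3b5 (-0.32 to -0.00) and Srd5a1 (0.04 to 0.36). It crossed 0 for Hsd3b2 (-0.00 to 0.32), Hsd3b3 (-0.12 to 0.19) and Hsd17b13 (-0.21 to 0.11), all small ratios whose sign follows the scaling. The 9 alternatives are not separate checks. Changing the minimum count leaves a gene's ratio as it is. The median of all genes, upper quartile scaling, totals without the 100 genes of most counts and counts per length each shift all genes alike. Such shifts were small beside the ratios of Cyp17a1 and Akr1c18, whose side of 0 was thus fixed in advance. The median of the 9 genes was -0.20 relative to the median of all genes, -0.21 with upper quartile scaling, -0.15 with totals without the 100 genes of most counts, and 0.11 with counts per length, which was added after seeing the data. The median of all genes was 0.16 with total counts, 0.05 without the 100 genes of most counts, 0.31 with counts per length and within 0.01 of 0 under the other scalings. Genes of the 9 that were lower past 1.5-fold numbered 3, 3 and 2 under the first 3 of these settings, Akr1c6 joining Akr1c18 in each and Hsd11b1 in the first 2.

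Among all genes, 339 were higher and 417 lower past 1.5-fold, so that 44.8% of them were higher. The share was 12.3% relative to the median of all genes (115 higher and 819 lower), 22.9% relative to like length (141 higher) and 22.4% relative to the 500 genes nearest in length (135 higher). It was 11.5% with upper quartile scaling (108 and 832), 18.2% without the 100 genes of most counts (152 and 681), 28.4% past 2-fold (29 and 73) and 86.0% with counts per length (1359 and 222). With at least 10 counts 763 were higher and 838 lower, and with no filter 1022 and 1155.

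Relative to genes of like length, list medians were -0.20 for Hsd3b relatives, -0.35 for Akr1c and Akr1d relatives, 0.14 for steroid synthesis, 0.023 for receptors, 0.087 for glucocorticoid targets, -0.050 for male-biased and -2.11 for female-biased genes. With no filter they were -1.72 for Hsd3b relatives, -0.41 for Akr1c and Akr1d relatives, 0.19 for receptors and -0.47 for female-biased genes, since genes of few counts then enter. Depth limits Akr1c18 most, with 13 counts in the erythrodiol group.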
